A study of Mus musculus with 8 samples.

Results

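Open chromatin of a mouse liver cancer model was compared between the Prog-like CK19 and the Prog-like Sox9 peak lists, region by region. Peaks of the lists that overlapped by at least 1 bp on the 19 autosomes were merged into regions, and each region was classed as CK19 only, Sox9 only or both. This gave 75631 regions, of 138775 regions that the 5 deposited lists form on all chromosomes. Of the 75631, 56446 held peaks of both lists, 12487 were CK19 only and 6698 were Sox9 only.

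The study applied ATAC-seq, in which a transposase inserts sequencing adapters where DNA is free of nucleosomes, to primary liver cells of the Rb family triple knockout model, which lacks the retinoblastoma protein Rb1 and its relatives Rbl1 and Rbl2. Cells with an active YFP reporter, a mark of Cre recombination of floxed alleles, were sorted from enzyme-digested liver or visible lesions and divided by surface Thy1 and EpCAM. The 8 samples form 5 groups by title: EpCAM-high CK19 (2 samples), EpCAM-high Sox9 (1), Thy1-positive CK19 (2), Thy1-positive Sox9 (1) and EpCAM-negative (2), all untreated. The labels do not use the name Prog-like, so both lists were tied to no sample group. The sources used here do not give the Cre driver, the age or sex of the animals, how many animals stand behind each list, or what CK19 and Sox9 stand for in the names.

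CK19 is keratin 19 (gene Krt19), an intermediate filament protein of bile duct cells, and Sox9 is a transcription factor of bile duct and progenitor cells. In an open chromatin profile, peaks at gene starts are largely shared between cell types, whereas peaks away from genes, many of them enhancers, differ more between cells and states. Rb family proteins bind E2F factors and restrain the cell cycle, and chromatin at E2F target genes is open in cells that divide.

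The markers went against the name Prog-like. Krt19 and Thy1, the surface protein of the sort, had no peak within 10 kb of the gene in either list, and Sox9 had 1 low CK19 peak and none in the Sox9 list. Of 24 biliary and progenitor genes, 9 had a peak within 1000 bp of either gene end on the CK19 side and 6 on the Sox9 side. Of 29 autosomal macrophage identity genes, 29 and 28 did. Of all autosomal protein-coding genes 58.9% and 55.9% did, and of 18 housekeeping genes 17 did in each list. Epcam, an epithelial adhesion protein, had 3 peaks in each list, all in shared regions. Both lists are called by their deposited names below, with no cell type implied.

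The CK19 list held 69098 autosomal peaks over 43.2 Mb and the Sox9 list 65831 over 32.7 Mb, with median widths of 520 bp and 399 bp. On the X chromosome the lists held 2164 and 1902 peaks, and on the Y chromosome 0 and 22. The sex chromosomes do not enter the classes, but a difference in sex between the animals behind the lists and a difference between the sets cannot be told apart. Read depth behind the lists is unknown, each condition has 1 list, and no replicate error can be given. Intervals in brackets are exact Clopper-Pearson 95% intervals that cover counting error only. Fold enrichments and −log10 q values are the authors' and describe peaks within their own list.

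Several regions of 1 list alone lie at gene starts, and 7 RefSeq promoter windows (GRCm38.p6, 250 bases before to 50 after the start) are shown because the regions named below fall on them. Mmp12, the macrophage elastase, had both kinds of region at separate annotated starts, and was chosen after its values were seen. Spp1 (osteopontin), Il1b (interleukin 1 beta), Cd5 (a lymphocyte surface receptor) and Rbl1 (the Rb relative p107) had a CK19-only region at the start. Abca14, an ATP-binding cassette transporter gene, had a Sox9-only region. Capitals mark letters that match a searched motif on either strand; windows with no capitals held none of the 18 motifs searched.
Mmp12, CK19-only region, chr9:7344147-7344446, plus strand: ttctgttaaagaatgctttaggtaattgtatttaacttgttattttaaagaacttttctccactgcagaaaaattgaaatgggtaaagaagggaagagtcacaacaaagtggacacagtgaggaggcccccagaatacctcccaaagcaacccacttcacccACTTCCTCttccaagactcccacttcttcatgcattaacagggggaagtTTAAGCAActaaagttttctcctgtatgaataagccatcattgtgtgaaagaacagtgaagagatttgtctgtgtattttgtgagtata
Mmp12, Sox9-only region, chr9:7347124-7347423, plus strand: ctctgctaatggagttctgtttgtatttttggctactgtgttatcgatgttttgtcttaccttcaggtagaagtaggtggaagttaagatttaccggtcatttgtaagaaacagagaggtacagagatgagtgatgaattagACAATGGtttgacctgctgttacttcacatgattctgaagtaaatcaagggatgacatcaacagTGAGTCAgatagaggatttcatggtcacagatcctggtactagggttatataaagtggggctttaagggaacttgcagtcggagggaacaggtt
Spp1, CK19-only region, chr5:104434861-104435160, plus strand: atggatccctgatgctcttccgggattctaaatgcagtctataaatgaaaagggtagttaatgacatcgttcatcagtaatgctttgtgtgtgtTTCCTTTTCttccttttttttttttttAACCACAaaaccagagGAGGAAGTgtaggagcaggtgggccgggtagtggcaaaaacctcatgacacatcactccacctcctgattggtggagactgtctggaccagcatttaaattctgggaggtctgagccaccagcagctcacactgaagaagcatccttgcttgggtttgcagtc
Il1b, CK19-only region, chr2:129371090-129371389, minus strand: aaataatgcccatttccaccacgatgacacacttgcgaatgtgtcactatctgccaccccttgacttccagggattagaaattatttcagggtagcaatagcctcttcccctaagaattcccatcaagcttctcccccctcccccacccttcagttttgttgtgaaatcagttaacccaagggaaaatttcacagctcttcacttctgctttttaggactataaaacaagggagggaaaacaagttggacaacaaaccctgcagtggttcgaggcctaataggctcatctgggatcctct
Cd5, CK19-only region, chr19:10738925-10739224, minus strand: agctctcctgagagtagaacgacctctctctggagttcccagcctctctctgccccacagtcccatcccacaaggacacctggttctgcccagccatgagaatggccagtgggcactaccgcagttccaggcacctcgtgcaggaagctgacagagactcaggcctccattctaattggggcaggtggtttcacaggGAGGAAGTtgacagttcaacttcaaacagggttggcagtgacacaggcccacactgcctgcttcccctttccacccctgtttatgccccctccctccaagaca
Rbl1, CK19-only region, chr2:157204485-157204784, minus strand: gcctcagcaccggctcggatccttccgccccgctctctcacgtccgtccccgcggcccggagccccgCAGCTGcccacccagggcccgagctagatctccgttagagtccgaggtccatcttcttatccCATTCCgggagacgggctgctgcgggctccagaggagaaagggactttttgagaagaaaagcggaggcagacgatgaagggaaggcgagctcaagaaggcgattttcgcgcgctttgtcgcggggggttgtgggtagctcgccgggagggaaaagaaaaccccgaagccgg
Abca14, Sox9-only region, chr7:120203714-120204013, plus strand: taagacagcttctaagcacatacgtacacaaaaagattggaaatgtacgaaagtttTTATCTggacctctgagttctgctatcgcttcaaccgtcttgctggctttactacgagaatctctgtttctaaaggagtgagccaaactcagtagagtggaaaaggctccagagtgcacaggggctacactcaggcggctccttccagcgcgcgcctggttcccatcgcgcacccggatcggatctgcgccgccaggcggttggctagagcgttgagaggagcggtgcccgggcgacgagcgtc

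Each Mmp12 window was touched by a peak of 1 list. The CK19-only region (9:7344262-7344574, −log10 q 18.7) overlapped the first window, which holds the PU.1 letters GAGGAAGT and the CEBP letters TTGCNNAA. The Sox9-only region (9:7347276-7347456, −log10 q 13.0) overlapped the second, which holds the AP-1 letters TGANTCA and the SOX letters ACAATGG. Between them lay a shared region (9:7345436-7346881) with −log10 q of 111 (CK19) and 73.2 (Sox9), so the locus was open in both lists and the lists parted at the flanks of that region. None of these 3 regions had a peak in the EpCAM-high or Tumor lists. The PU.1 letters also occur in the Spp1 and Cd5 windows, and 3.25% of all 31396 promoter windows hold them on either strand.

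Shared regions made up 74.6% (74.3 to 74.9) of all regions, CK19-only regions 16.5% (16.2 to 16.8) and Sox9-only regions 8.86% (8.65 to 9.06). Counted from the lists, 81.9% of CK19 peaks were held by the Sox9 list and 89.8% of Sox9 peaks by the CK19 list. With both lists shortened to 65831 peaks by −log10 p, which removes the 3267 lowest CK19 peaks, 55952 regions were shared, 9742 were CK19 only and 7195 Sox9 only. At 38506 peaks each, the autosomal length of the shortest deposited list, the counts were 34178, 4298 and 3537. The CK19 list thus had more regions of its own at each length, and the excess shrank as the lists were shortened.

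Sharing followed peak rank. Of the 6909 highest CK19 peaks, 2 had no Sox9 peak, and of the 6583 highest Sox9 peaks 0 lacked a CK19 peak. Among the 6910 lowest CK19 peaks 25% (24.0 to 26.1) were held by the Sox9 list, and among the 6584 lowest Sox9 peaks 49.6% (48.4 to 50.9) by the CK19 list. The lists parted in their lower ranks, and CK19 peaks of low rank were held less often than Sox9 peaks of low rank.

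**Figure D1:**
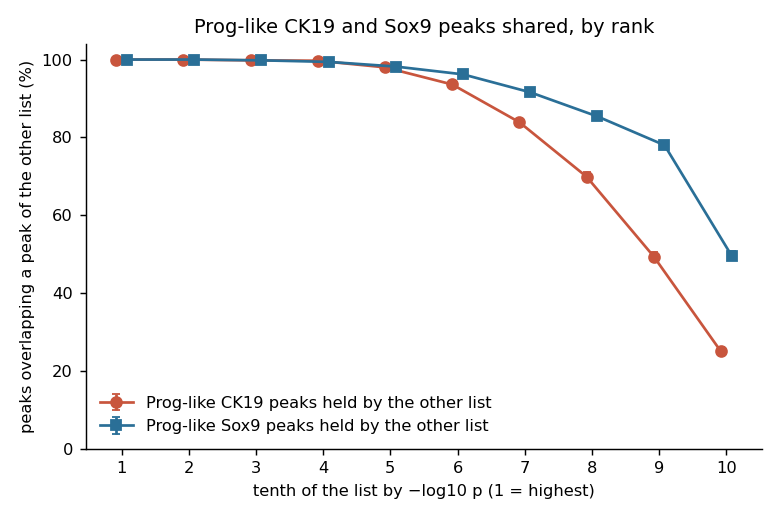
Share of each list's autosomal peaks that overlap a peak of the other Prog-like list (y axis, percent) by rank, in 10 equal steps of falling −log10 p (x axis, 1 = highest); bars are exact 95% intervals, mostly smaller than the points. Both curves stay at 99.8% or above over the first 3 steps and fall to 25% (CK19 peaks) and 49.6% (Sox9 peaks) in the last.

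Regions of 1 list alone were narrow and of low significance in their own list. Their median −log10 q was 7.15 for CK19 only and 5.53 for Sox9 only, against 42.9 and 31.0 for CK19 and Sox9 peaks in shared regions. Median widths were 269 bp, 194 bp and 625 bp for CK19-only, Sox9-only and shared regions. Few were near misses in space, since 5.97% of CK19-only and 6.48% of Sox9-only regions had a peak of the other list within 500 bp. Of 59298 overlapping pairs of peaks, 76 overlapped by 50 bp or less.

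In the shared regions the lists pointed to the same bases. Peak summits, the positions of highest signal, lay a median of 20 bp apart, and 75.5% were within 50 bp of each other. The CK19 peaks covered more bases in 84.0% of shared regions, with a median ratio of 1.22. Across the 56446 regions −log10 p values of the lists rose together (Spearman's rho 0.92, a description across regions that share sequence and base composition, which are not replicates). CK19 peaks were wider at the same sites as well as more numerous.

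Among high-ranking peaks, few were missing from the other list altogether. Of the 4298 regions that were CK19 only at 38506 peaks each, 3910 held a lower-ranked Sox9 peak in the list as deposited, which left 388, or 1.01% of the 38506 peaks. Of the 3537 Sox9-only regions, 3162 held a lower CK19 peak, which left 375, or 0.974%. The intervals of these shares, 0.910 to 1.11 and 0.878 to 1.08, overlap. This stricter class was chosen after the data were seen.

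The region classes lay in different parts of the genome. Shared regions were at gene ends (within 1000 bp of either end of 20665 autosomal protein-coding genes of RefSeq) in 20.1% (19.8 to 20.5), CK19-only regions in 9.37% (8.86 to 9.89) and Sox9-only regions in 4.52% (4.04 to 5.05). Between genes lay 36.6%, 42.5% and 53.3% of the 3 classes, and in gene bodies away from the ends 43.3%, 48.2% and 42.1%. The median distance to a gene end was 13.9 kb for shared, 19.6 kb for CK19-only and 39.1 kb for Sox9-only regions. Over 500 kb from any gene end lay 1.05% (0.970 to 1.14) of shared, 4.14% (3.80 to 4.50) of CK19-only and 10.3% (9.55 to 11) of Sox9-only regions. Sox9-only regions were the class farthest from genes.

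Within ranges of each list's own −log10 q, which are not one scale across lists, CK19-only regions stayed above Sox9-only regions, while the gap between shared and CK19-only regions nearly closed among low peaks. With −log10 q under 5, 9.79% of CK19-only and 4.89% of Sox9-only regions lay at gene ends. From 5 to 20 the shares were 9.31% and 4.38%, and from 20 upward they were 7.86% (65 of 827) and 2.82% (10 of 354). Shared regions with a CK19 −log10 q under 5 lay at gene ends in 10.8% (9 to 12.9), against 9.79% (8.90 to 10.7) for CK19 only, and those from 5 to 20 in 9.71% (9.21 to 10.2), against 9.31% (8.66 to 9.99). From 20 upward 23.6% of shared regions did. By Sox9 −log10 q, shared regions lay at gene ends in 14.0% (12.6 to 15.6) under 5. From 5 to 20 this share was 11.3% (10.8 to 11.8). The gap between shared and Sox9-only regions thus did not close among low peaks. Within 1000 bp of any annotated gene start, the shares were 8.10%, 3.97% and 18.6% for CK19-only, Sox9-only and shared regions. At 38506 peaks each they were 14.8%, 5.48% and 26.2% at gene ends, and there Sox9-only regions were more often in gene bodies (48.8%) than between genes (45.7%).

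**Figure D2:**
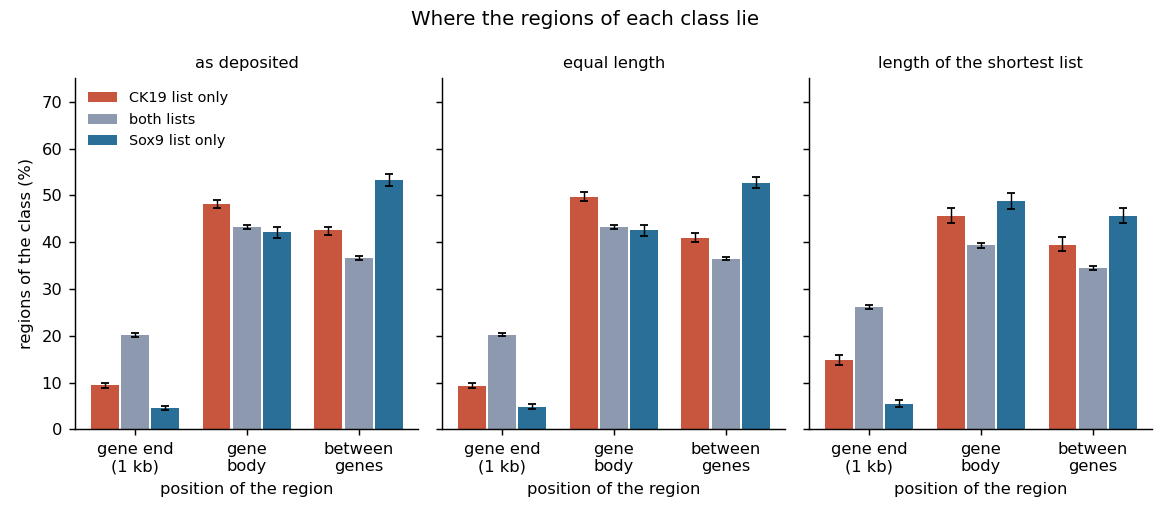
Percent of the regions of each class (y axis) at gene ends (within 1 kb), in gene bodies and between genes (x axis), for the lists as deposited, at 65831 and at 38506 peaks each; bars with exact 95% intervals. The gene-end share is highest for shared regions and lowest for Sox9-only regions in all 3 panels (4.52%, 4.84% and 5.48% for Sox9 only).

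No chromosome held regions of 1 class alone. The CK19-only share ran from 13.7% of regions on chromosome 7 to 18.7% on chromosomes 11 and 16, and the Sox9-only share from 6.53% on chromosome 11 to 10.5% on chromosome 14. There were 1.40 CK19-only regions per Sox9-only region on chromosome 13 and 2.86 on chromosome 11, so CK19-only regions were the more numerous on each autosome.

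The other 3 lists, which had no part in forming the classes, held 24.7% (24.0 to 25.5) of CK19-only, 17.6% (16.7 to 18.5) of Sox9-only and 38.5% (38.1 to 38.9) of shared regions. Most regions of 1 Prog-like list were therefore seen in that list alone. The CK19 name went with a higher share on the CK19 side: where exactly 1 EpCAM-high list held a region, it was the EpCAM-high CK19 list for 592 of 965 CK19-only regions (61.3%, 58.2 to 64.4), 283 of 535 Sox9-only regions (52.9%, 48.6 to 57.2) and 41.8% of shared regions. In the stricter class of high peaks the counts were 32 of 52 (61.5%, 47.0 to 74.7) and 11 of 33 (33.3%, 18.0 to 51.8). At 38506 peaks each the shares were 44.7% and 41.5% with overlapping intervals, so this pattern depends on list length.

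Of the 20665 genes, 58.9% had a CK19 peak at a gene end, 55.9% a Sox9 peak and 11406 genes both. A gene-end peak in the CK19 list alone was found for 767 genes (3.71% of all genes) and in the Sox9 list alone for 148 (0.716%). At 65831 peaks each these were 611 (2.96%) and 174 (0.842%), and at 38506 peaks each 627 (3.03%) and 150 (0.726%). Of the 767, 89 owed the call to a shared region whose Sox9 peak lay farther out than 1000 bp, and of the 148, 4 did. Counting only genes with a region of 1 class and no other region at the ends, at both of the longer lengths, 522 genes (2.53%) were CK19 only and 144 (0.697%) Sox9 only. This count was added after the data were seen.

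The 10 genes with the strongest gene-end peak in the CK19 list alone were all such edge cases. AB010352, Angptl6, Ipo8, Zfp574, Gm6958, Zfp821 and Septin4 had a −log10 q of 165 to 382 at the gene end and no CK19-only region within 10 kb, since each peak belonged to a shared region. Lig1, a DNA ligase gene, led the Sox9 side in the same way, with −log10 q of 301 and all 4 locus regions shared, and Sox30 (46.2) and Zeb1 (23.4), a repressor of epithelial genes, also had no Sox9-only region there. Dnajc1, Nudt16 and Gcm1, the remaining CK19 leaders, each had 1 CK19-only region elsewhere in the locus. Their gene-end peaks (−log10 q 283, 208 and 174) also belonged to shared regions. Tex9, Abca14, Tmem52b, Dio1, Ftdc2, Trh and Klf15 had a Sox9-only region at the gene end, with −log10 q of 18.0 to 46.0.

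Ranked by region, the leading CK19-only genes were of no single tissue. H2-T-ps (−log10 q 46.4), Myrf (38.8), Tex15 (35.6), Slco4c1 (34.5), Gm10499 (32.5), Pcdh10 (31.8), Tshr (31.5), Muc13 (30.5), Cacna1g (29.5) and Gm52042 (29.5) led the 522 genes. Myrf is a transcription factor of myelinating cells, Tshr the thyrotropin receptor, Muc13 an epithelial mucin and Cacna1g a calcium channel subunit. H2-T-ps (17:36109030-36111723) and Gm10499 (17:36141748-36146200) are neighbours in the major histocompatibility complex. The Sox9 side was led by Tex9 and Abca14, followed further down by Iqgap1 (16.7), a scaffold protein of the cytoskeleton, Il2ra (15.3), the interleukin 2 receptor alpha chain, and Ugt1a6b (15.3), a glucuronosyltransferase. These rankings by region were chosen after the data were seen. Of the 522 genes 67.4% were also open at a gene end in EpCAM-high CK19, 68.6% in EpCAM-high Sox9 and 46.2% in Tumor Sox9. Of the 144 genes these shares were 38.9%, 42.4% and 22.9%, and of all genes 59.3%, 59.2% and 52.5%.

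Klf15, a transcription factor of glucose and fat metabolism (6:90461043-90491803), had 9 Sox9 peaks and 5 CK19 peaks at its locus, the gene with 10 kb on either side. Its 5 shared regions had −log10 q of 11.1 to 78.9 (CK19) and 13.0 to 55.6 (Sox9). Its 4 Sox9-only regions had −log10 q of 4.83 to 18.0, and the highest of them, at 6:90492014-90492272, lay at the gene end. The Sox9-only regions thus lay at the lower end of the locus's Sox9 values. Trh, the thyrotropin-releasing hormone gene, had 1 Sox9 peak (−log10 q 20.6) and no CK19 peak, and Dio1, which activates thyroid hormone, had 3 Sox9 and 2 CK19 peaks.

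Among the 490 autosomal genes of 24 lists, 26 had a gene-end peak from CK19 alone and 4 from Sox9 alone, where 3.71% and 0.716% of all genes did. Macrophage identity, macrophage transcription factor and pan-leukocyte genes were open in both lists: 28 of 29, 23 of 25 and 19 of 21 had a gene-end peak in both. Pattern recognition receptors, which sense microbial and damage signals, had one in both lists at 18 of 18 genes, and E2F and cell cycle genes at 28 of 30. Hepatocyte genes had a gene-end peak at 10 of 37 in each list and genes of other tissues at 4 of 19. As deposited, none of the 24 lists had more genes open at an end on the Sox9 side than on the CK19 side. At 38506 peaks each endothelial genes stood at 5 (CK19) and 6 (Sox9) and stellate and mesenchymal genes at 3 and 5, and with a 2500 bp window hepatocyte genes stood at 12 and 13.

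As deposited the widest gaps, of 3 genes, were at endothelial and biliary genes. At 38506 peaks each the endothelial gap turned over, as given above, and biliary and progenitor genes stood at 2 and 2. Gene ends of endothelial genes were open at 10 of 22 for CK19 (45.5%, 24.4 to 67.8) and 7 for Sox9 (31.8%, 13.9 to 54.9). Biliary and progenitor genes stood at 9 and 6 of 24, YAP and Hippo pathway genes at 12 and 10 of 16, and T and NK cell genes at 6 and 4 of 23. The intervals of the 2 lists overlap in each case, but both lists were scored on the same genes, so overlap does not compare them. Open in CK19 alone were 3 endothelial, 3 biliary and progenitor, 2 YAP and Hippo and 2 T and NK cell genes. In Sox9 alone 0 were open in each of these lists. Of the regions at all loci, summed over genes, 78.4% were shared, 15.3% CK19 only and 6.25% Sox9 only. By list the shared part ran from 67.4% (T and NK cell genes, 29 of 43 regions) to 91.9% (neutrophil genes, 34 of 37). The CK19-only part was highest at YAP and Hippo genes (27.4%, 20 of 73 regions), Wnt pathway genes (26.5%, 27 of 102) and T and NK cell genes (25.6%, 11 of 43). The Sox9-only part was highest at TGF-beta pathway genes (10.1%, 15 of 149).

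**Figure D3:**
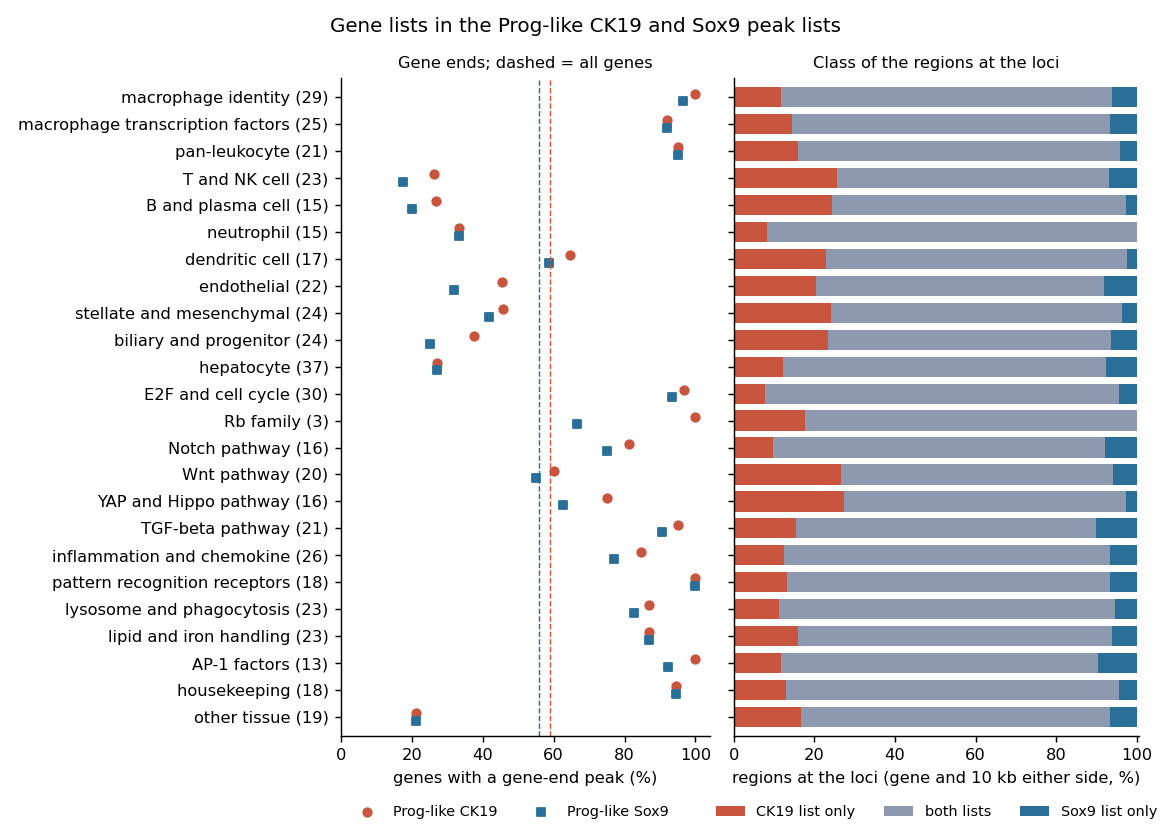
Left, percent of the autosomal genes of each list (their number in brackets) open at a gene end in the CK19 and Sox9 lists; dashed lines mark all genes (58.9% and 55.9%). Right, percent of the regions at the lists' loci that are CK19 only, shared or Sox9 only; the shared part is the largest for each list, from 67.4% to 91.9%.

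At macrophage genes the highest peaks were shared, as high peaks were across the lists. In each of the first 5 rank steps 98.0% or more of either list's peaks were held by the other. Of the regions at macrophage identity loci 81.9% were shared, against 78.4% at all loci. Adgre1 encodes F4/80, a surface protein of macrophages (17:57358581-57483529), and had 8 CK19 and 5 Sox9 peaks. Its 5 shared regions, with −log10 q of 8.23 to 79.0 (CK19) and 10.8 to 32.0 (Sox9), included the gene end, and its 3 CK19-only regions had −log10 q of 4.70 to 17.4. Csf1r, the receptor of the macrophage growth factor, had 8 peaks in each list, of which 5 regions were shared, 3 CK19 only and 2 Sox9 only. Those 5 had −log10 q of at most 5.88 in their own list, whereas the shared ones reached 119 and 94.8. Clec4f, a lectin of liver macrophages, had 6 CK19 and 7 Sox9 peaks with 5 shared regions, and the direction of its difference turned at other settings. Spi1, which encodes PU.1, had 7 peaks in each list, Ptprc (CD45) 13 and 14, and Lyz2 (lysozyme) 6 and 5. At Adgre1, Csf1r, Clec4f and Lyz2 the highest region of each list was a shared one.

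Genes of inflammation showed the same at closer view. Il1b had 4 CK19 and 3 Sox9 peaks. The region that Sox9 lacked, at the start printed above (2:129371023-129371344), had −log10 q of 9.96, and its 3 shared regions had 57.6, 103 and 67.5 (CK19) and 36.3, 83.9 and 31.9 (Sox9). The gene start was thus called in 1 list while stronger regions around it were called in both. Cxcl1, a chemokine that draws neutrophils, had a gene-end peak in the CK19 list alone (6.65) among 4 shared regions. Spp1 had 1 CK19-only region at its start (6.48), which all 3 other lists also held, and 1 shared region. Itgav (5.33), an integrin subunit, and Cd52 (13.5), a leukocyte surface peptide, had a CK19 gene-end peak alone beside 11 and 3 shared regions.

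Among genes of other cell types, some had a gene-end peak in the CK19 list alone. Sparc, a matrix protein of stellate cells, had 3 CK19 peaks (−log10 q 18.2, 12.3 and 7.15) and no Sox9 peak at its locus. Col1a1, the collagen I chain (13.9), and Snai2, a mesenchymal transcription factor (14.7), each had 1 CK19 peak and no Sox9 peak. Among endothelial genes Sox17, a transcription factor, had 2 CK19 peaks and no Sox9 peak, and Tek, the angiopoietin receptor, had 4 and 1. The highest region at Tek was shared, with −log10 q of 68.7 (CK19) and 98.5 (Sox9), and its 3 CK19-only regions had 3.99 to 7.15. At Sox17 the gene-end CK19 peak was low (4.28). Ebf1, the B cell factor, had 3 and 1, and Cd5 had 1 and 0. Cdh1, the epithelial cadherin, had 3 and 2, and Foxa2, a factor of liver and gut endoderm, 4 and 2. At 38506 peaks each, CK19-only minus Sox9-only regions came to 0 at each gene named here from Sparc to Foxa2. Over whole lists, stellate and mesenchymal genes were open at a gene end at 11 of 24 (CK19) and 10 (Sox9), which turned to 3 and 5 at 38506 peaks each, with 0 genes open in CK19 alone and 2 in Sox9 alone. Alb, the defining hepatocyte gene, was at 0 in both lists. Hnf4a, another hepatocyte gene, had 5 peaks in each list, all in 5 shared regions and none at a gene end. The part of admixed cells in these peaks was not tested.

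Pecam1, the endothelial and leukocyte adhesion protein CD31, had a wider gap than Adgre1 or Csf1r, with 12 CK19 and 5 Sox9 peaks (11:106654213-106715281). All 5 Sox9 peaks lay in shared regions, with −log10 q of 3.73 to 27.8, and the 7 CK19-only regions had −log10 q of 3.92 to 17.3. Of these 7 regions, 0 were among the 38506 highest CK19 peaks. Pecam1 had no gene-end peak in either list, and 3 regions shared by both lists lay inside the gene.

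Of the genes that the model deletes, Rb1 (14:73192858-73325951) had 19 CK19 and 16 Sox9 peaks, Rbl1 7 and 5, and Rbl2 8 and 8. Rb1 had 15 shared and 4 CK19-only regions, whose −log10 q was 5.92 to 7.15. Rbl1 had a gene-end peak in the CK19 list alone (5.83), at the start printed above, and 5 shared regions. Peaks at these genes do not test the deletion, since the sources used here do not name the deleted exons. E2f2, a gene of the E2F family, had a CK19-only region at a gene end (16.4) and 3 shared regions, and both lists had a peak at an annotated start.

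In the YAP and Hippo list, Vgll4, a cofactor that competes with YAP, had 15 CK19 and 8 Sox9 peaks, and its 7 CK19-only regions had −log10 q of 2.87 to 6.48, apart from a higher one in the flank. Tead4, a DNA-binding partner of YAP, had 2 CK19 peaks and none in the Sox9 list, and Tgfbr3, a co-receptor of TGF-beta, 1 and 0. The genes of the lists with a Sox9 gene-end peak alone were Fli1, Reln, Nr1i2 and Zeb1. Nr1i2, a nuclear receptor for foreign compounds in hepatocytes, had 2 Sox9 peaks and 1 CK19 peak, with −log10 q of 12.3 at the gene end. Reln, a matrix protein of stellate cells, had a Sox9-only region at a gene end (3.03) and a CK19-only region elsewhere. Fli1, an ETS factor of blood and endothelium, had 19 CK19 and 15 Sox9 peaks, and its gene-end Sox9 peak was low (2.25).

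Genes with 3 or more CK19-only regions at the locus numbered 855 (4.14% of all genes) and those with 3 or more Sox9-only regions 261 (1.26%), at 65831 peaks each 606 (2.93%) and 297 (1.44%). At least 1 CK19-only region was near 31.6% of genes and a Sox9-only region near 14.9%. The rich loci were long, with a median gene length of 127 kb and 294 kb against 17.5 kb for all genes. There were 119 genes in both sets, which is 13.9% of the 855 and 45.6% of the 261.

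The 10 genes with the largest excess of CK19-only regions at equal length were Zfp993, Ptprm, Gse1, Rreb1, Plcl1, Zfp148, Zfp982, Foxn3, Cacna1a and Cd44. Zfp993 had 15 CK19 peaks and 1 Sox9 peak, and Zfp982 15 and 6. Both belong to a cluster of near-identical zinc finger genes on chromosome 4, so these peaks are uncertain where reads map to several copies. Ptprm, a receptor phosphatase of cell contacts, had 34 and 22 peaks, and Rreb1, a zinc finger factor downstream of Ras, 26 and 16. Zfp148, another zinc finger factor, had 15 and 5. At 38506 peaks each the excess turned over at Plcl1 and was 0 at Zfp993, Zfp982, Cacna1a and Cd44. It was 1 at Gse1 and Zfp148, 2 at Ptprm and Rreb1 and 3 at Foxn3. As deposited, the CK19 excess at genes other than Plcl1 came with 6 or more shared regions each, apart from Zfp993 with 1, Zfp982 with 4 and Zfp148 with 5.

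Cd44, the hyaluronan receptor of leukocytes and progenitor cells (2:102811141-102901669), had 17 CK19 and 10 Sox9 peaks. All 10 Sox9 peaks lay in shared regions, with −log10 q of 4.47 to 68.5. The 7 CK19-only regions had −log10 q of 4.88 to 24.6 and were spread over the gene and its flank. Of these 7 regions too, 0 were among the 38506 highest CK19 peaks.

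Among the 10 genes with the largest excess of Sox9-only regions were Lrp1b, Cadm2, Adarb2, Zbtb16, Csmd3, Robo2, Slc8a1 and Dach1. Lrp1b, Cadm2, Csmd3 and Robo2 are long genes known from neurons, of 966 kb to 2060 kb. Lrp1b had 14 Sox9 and 7 CK19 peaks and Csmd3 12 and 8. Cadm2 had 9 Sox9-only and 8 CK19-only regions as deposited and Robo2 8 of each, and the excess arose when the CK19 list was shortened, which left 1 CK19-only region at each. When peaks with −log10 q under 5 were left out, the difference turned over at Lrp1b and Csmd3. The EpCAM-high lists leaned the other way at these loci: EpCAM-high CK19 and EpCAM-high Sox9 had 18 and 8 peaks at Lrp1b, 26 and 6 at Csmd3 and 44 and 17 at Robo2. Dach1 had 6 Sox9-only regions, 1 CK19-only region and no shared region, with −log10 q of 1.73 to 4.47. At Lrp1b, Csmd3 and Dach1 the excess was thus one of low peaks.

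Zbtb16 held a Sox9-only region of higher rank. Zbtb16, which encodes the transcription factor PLZF (9:48651797-48836225), had 14 Sox9 and 7 CK19 peaks, and each of the 7 CK19 peaks lay in a shared region. Its 7 Sox9-only regions had −log10 q of 2.79 to 56.6. The highest, at 9:48723276-48724183 and 908 bp wide, lay 15518 bp from the nearest CK19 peak and was also held by the EpCAM-high Sox9 and Tumor Sox9 lists but not by the EpCAM-high CK19 list. Slc8a1, a sodium-calcium exchanger, had 41 Sox9 and 34 CK19 peaks with 33 shared regions, 7 Sox9 only and 1 CK19 only. The highest of those 7 had −log10 q of 17.4. Of the Sox9-only regions as deposited, 1 at Zbtb16 and 0 at Slc8a1 were among the 38506 highest Sox9 peaks.

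**Figure D4:**
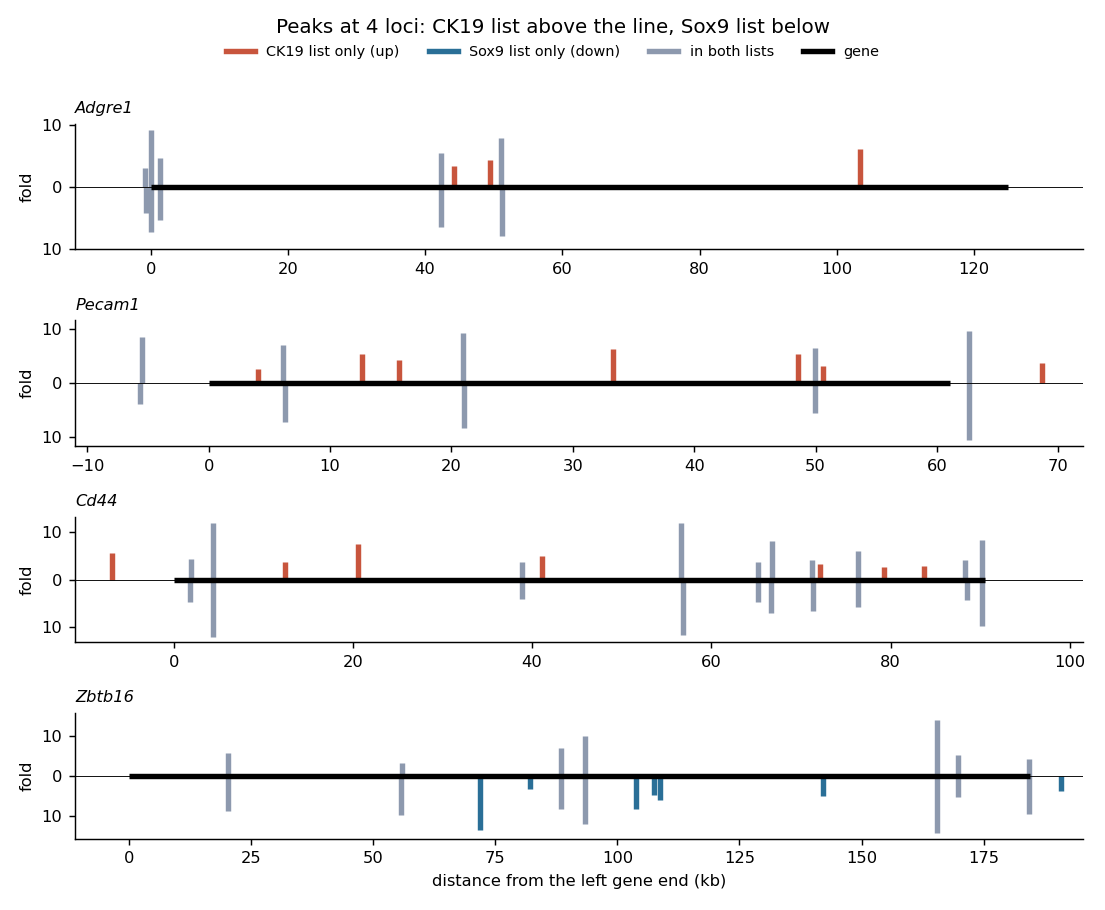
Peaks of the CK19 list (upward) and the Sox9 list (downward) at Adgre1, Pecam1, Cd44 and Zbtb16, with the authors' fold enrichment as height (y axis) against distance from the left gene end in kb (x axis); grey bars are peaks in shared regions, coloured bars peaks of 1 list alone, the black line is the gene. Adgre1, Pecam1 and Cd44 have 3, 7 and 7 CK19-only regions and no Sox9-only region, and Zbtb16 has 7 Sox9-only and no CK19-only region.

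The single regions of highest significance in 1 list alone lay between 1711 bp and 114440 bp from the nearest peak of the other list. On the CK19 side, the leader lay in Skint3, a gene of the butyrophilin-like family, at 4:112255767-112256636 (−log10 q 219), 31885 bp from the nearest Sox9 peak. Next came regions 99129 bp from Rpe65 (3:159724436-159725031, 152) and 58829 bp from Gm46900 (5:5809019-5809951, 134). The others lay near Gm7030 in the histocompatibility complex (83.9), in Cdk14 (78.9), near Gadl1 (75.6 and 68.6), in Glrp1 (72.3), near Atxn7l3b (72.0) and at Fam98a (70.0). Of these 10 regions, 4 were held by the EpCAM-high CK19 list and 0 by the EpCAM-high Sox9 list. The regions near Rpe65 and Atxn7l3b were also in the Tumor Sox9 list, and no other of the 10 was. Across all CK19-only regions the EpCAM-high shares were closer, with 19.5% held by EpCAM-high CK19 and 17.8% by EpCAM-high Sox9.

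On the Sox9 side the leader lay 636045 bp from the nearest gene, Epha7 (4:28176837-28177021, −log10 q 108, fold 25.1). The others were in Ostc (62.7), near Sptssb (62.1), Fmo9 (61.1) and Ifi44l (58.4), in Zbtb16 (56.6), Col28a1 (55.2), Camk1d (54.3) and Dpp10 (53.0) and near Hbb-y (53.0), an embryonic globin gene. Of these 10, 2 were held by the EpCAM-high CK19 list, 2 by the EpCAM-high Sox9 list and 2 by the Tumor Sox9 list. Of the 20 regions, the one at Fam98a lay at a gene end.

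The 388 CK19-only and 375 Sox9-only regions of the stricter class kept the difference in position. At gene ends lay 7.73% (5.28 to 10.9) and 2.67% (1.29 to 4.85), and between genes 46.6% and 56.0%. Another region of the class lay within 1 Mb of 39.2% and 33.3% of them, so most had none that near. The densest windows of 1 Mb for the CK19-only regions held 5 (chromosome 5, 5 to 6 Mb, with Cdk14, Steap1 and Steap2), 4 (chromosome 1, 88 to 89 Mb, with the Ugt1a genes) and 4 (chromosome 9, 115 to 116 Mb, with Gadl1). No window held more than 3 of the Sox9-only regions. Genes of near-identical sequence, such as the Ugt1a, Skint and histocompatibility genes, are uncertain here where reads map to several copies.

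At annotated gene starts, 607 promoter windows (1.93% of 31396) overlapped a CK19-only region and no other, 115 (0.366%) a Sox9-only region and no other, and 12301 (39.2%) a shared region. Shared windows were rich in CpG dinucleotides, with a median of 22 in 300 bases, against 15 for CK19-only, 8 for Sox9-only and 4 for the 18373 windows with no region. The ETS letters CCGGAAGT were in 8.84% (8.35 to 9.36) of shared windows, 0.824% (0.268 to 1.91) of CK19-only windows and 0.870% (0.0220 to 4.75) of Sox9-only windows, and in 3.95% of all windows. The E-box letters CACGTG were in 10.6% of shared, 5.77% of CK19-only and 4.35% of Sox9-only windows, and in 7.14% of all. By these 2 motifs the windows of 1 list alone were nearer to windows with no region (0.795% and 4.93%) than to shared ones. The SP letters CCCCGCCC were in 33.6%, 25.7% and 20.9% of shared, CK19-only and Sox9-only windows, 6.91% of windows with no region and 17.8% of all. The CTCF letters AGGGGGCG were in 11.5%, 10.7% and 9.57%, 2.35% of windows with no region and 6.11% of all. By the SP and CTCF letters the windows of 1 list alone were nearer to shared ones.

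At these counts the shares of PU.1, AP-1 and CEBP letters could not be separated between the lists. The PU.1 letters were in 4.28% (2.82 to 6.21) of CK19-only and 2.61% (0.541 to 7.43) of Sox9-only windows. The AP-1 letters were in 5.77% (4.05 to 7.93) and 10.4% (5.51 to 17.5), against 7.84% of all windows, and the CEBP letters in 9.72% (7.48 to 12.4) and 11.3% (6.16 to 18.6), against 10.9%. The intervals overlap in each case, and a match is a description of letters, not of a bound factor.

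Of 919 autosomal microRNA hairpins of RefSeq, 156 had a shared region within 1000 bp, 22 a CK19-only region and no other, and 1 a Sox9-only region and no other. At 65831 peaks each 18 of the 22 and the 1 kept their class. For comparison, 2.53% of all genes had a CK19-only region and no other at an end, and 0.697% a Sox9-only one. Mature sequences from 5 of these hairpins are shown, 4 of the CK19 side and the only one of the Sox9 side, to show that they belong to different seed families. Capitals mark the seed, bases 2 to 8, which pairs with target messages.
mmu-miR-10a-5p (CK19 only, chr11:96317186-96317208, plus strand): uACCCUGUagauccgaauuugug
mmu-miR-152-3p (CK19 only, chr11:96850439-96850459, plus strand): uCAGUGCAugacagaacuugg
mmu-miR-9-5p of Mir9-2 (CK19 only, chr13:83738821-83738843, plus strand): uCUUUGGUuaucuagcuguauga
mmu-miR-202-3p (CK19 only, chr7:139957695-139957716, minus strand): aGAGGUAUagcgcaugggaaga
mmu-miR-12181-5p (Sox9 only, chr11:77467518-77467539, plus strand): uUGAGGGUgcauaaggacugga
Mir10a, which lies in the Hoxb gene cluster, had a CK19-only region 751 bp away (11:96318025-96319569, −log10 q 15.6), and Mir152 one 113 bp away (5.19). Mir9-2, known from neural progenitors, had one 34 bp away (4.58), which the EpCAM-high CK19 list also held, and at Mir202, known from the gonads, the region overlapped the hairpin (4.58). The Sox9-only region at Mir12181 was 13 bp away (3.73). The regions at Mir152, Mir9-2, Mir202 and Mir12181 were of low significance in their own list.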

How the data were processed

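ATAC-seq peak lists of the autosomes were compared. The authors deposited 5 peak lists in the narrowPeak layout, 1 per condition and none per sample. Tools named per the submitters' processing notes are Bowtie 1.1.2, MACS2, HOMER and deepTools, with build mm10. The fold enrichment (a ratio at the summit over local background) and the −log10 p and −log10 q of each peak are the authors' values as deposited. Pooling of libraries, the transposase read shift, duplicate reads and reads that map to several places are not described in the sources used here, and they could change how many peaks a list holds.

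Peaks of the Prog-like lists that overlapped by 1 bp were joined into regions with Python 3.11.15, numpy 2.4.6 and pandas 2.3.3, with binomial intervals from scipy 1.17.1. The joining was tested on simulated lists. Genes, promoters and microRNAs come from RefSeq (GRCm38.p6, the assembly of mm10): all 497 symbols of the 24 lists matched, 490 of them on autosomes, and 16457 of 20665 genes had a start in the promoter table. Alternatives were list lengths, a −log10 q of 5, the overlap rule, the chromosomes, the gene-end window and the locus flank. The members and gene lists were chosen with earlier results of these data known.

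Named genes were 17 markers and model genes whatever their values, 23 genes of the lists that were open at a gene end in 1 peak list alone at both lengths, and per direction the 10 genes with the largest difference in regions of 1 list at the locus, the 10 regions of highest −log10 q and the 10 genes of highest gene-end −log10 q. Exceptions are named in the text. Some genes that the rule names are not reported here. No test was made, since each condition has 1 list, and no read counts were used.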

Additional observations from a re-analysis of the deposited data

Results flagged for a closer look

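The Prog-like Sox9 list held 22 peaks on the Y chromosome and the Prog-like CK19 list 0. The highest lay in Ddx3y (−log10 q 151), an RNA helicase gene, with further ones in Uty, a histone demethylase gene (among them 58.9 and 44.9), Eif2s3y (40.2) and Kdm5d (17.4). The EpCAM-high CK19 list held 1, EpCAM-high Sox9 10 and Tumor Sox9 17. The sex of the animals is not given in the sources used here, so sex and set cannot be told apart between the lists.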

How the results depend on the processing

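No paired analysis was possible because the replicate numbers of the labels belong to samples and the lists carry none. At 38506 peaks each there were 4298 CK19-only and 3537 Sox9-only regions, of which 388 and 375 lacked any peak of the other list as deposited. With both lists first cut to peaks with −log10 q of 5 or more, 4308 regions were Sox9 only. The shared percentage was 76.8 at 65831 peaks each, 81.4 at 38506, 79.0 at −log10 q of 5, 74.1 with 50% overlap and 75.3 with peaks within 500 bp joined. The percentage at gene ends was 14.8 (CK19 only) and 5.48 (Sox9 only) at 38506 peaks, 8.81 and 3.99 within 500 bp and 16.1 and 9.05 with a 2500 bp window, and 9.95 for CK19 only at −log10 q of 5. At 38506 peaks 29.8% of CK19-only and 27.7% of Sox9-only regions were in another list, and 19.5% of Sox9-only ones at −log10 q of 5. Genes with 3 or more CK19-only regions numbered 165 at 38506 peaks and 2726 with 50 kb flanks, and with Sox9-only regions 105, 539 and, at −log10 q of 5, 133. At gene starts alone 84 genes had a Sox9 peak alone. Of list genes, 17 had a CK19 gene-end peak alone at 38506 peaks, and 2 a Sox9 one with a 2500 bp window.

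Locus differences (CK19 minus Sox9 regions) that turned over were, at 38506 peaks, Clec4f at 1, Itgav -1, Plcl1 -4, Sox30 -1 and Iqgap1 -1. With 50 kb flanks they were Clec4f at 3, Nr1i2 1, Tmem52b 3 and Ftdc2 1. At −log10 q of 5 they were Clec4f at 1, Lrp1b 2, Csmd3 3 and Ugt1a6b -1, and at 65831 peaks Ugt1a6b -2. Fewer peaks enter the shortened lists; for the other changes the cause was not tested. Of the alternatives for main results 54 stayed within their limits, 28 moved and 0 turned over; for named genes 455, 71 and 14. Read depth is unknown and limits what absence from a list shows.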
